A study of Mus musculus with 9 samples.

Results

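The 30 genes described here encode enzymes that build cholesterol and fatty acids, together with proteins that switch those enzymes on or off and a sterol carrier. They are a list of sterol pathway genes and known targets of the SREBP transcription factors, matched by gene symbol, and all 30 were found among the 15977 genes of the deposited table. Messenger RNA levels came from RNA sequencing of N2A, a line of mouse neuroblastoma cells, and every group shares a knockout of the gene for MOV10, an RNA helicase that acts with AGO2 in microRNA silencing. Into these cells 1 of 3 MOV10 forms was transfected (2 micrograms of DNA), and RNA was taken after 24 hours. These were WT MOV10, S970A, in which alanine stands at serine 970 and cannot be phosphorylated, and S970D, in which aspartate stands there as a mimic of phosphoserine. Each form has 3 libraries (n = 3 per group in all values below), labelled replicates 1 to 3. The labels do not say whether the knockout line is 1 clone, which promoter drove MOV10, or whether replicates were separate cultures, so p-values measure the spread between these libraries only.

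Cholesterol is made from acetyl-CoA. A first series of enzymes builds mevalonate and turns it into farnesyl diphosphate, a second joins farnesyl units into squalene and folds it into lanosterol, and a last series trims lanosterol to cholesterol. Fatty acid synthesis starts from the same acetyl-CoA, which ATP citrate lyase supplies from citrate. Most of these enzymes share a switch. When the membrane of the endoplasmic reticulum is poor in sterol, the escort protein SCAP carries the precursors SREBP1 and SREBP2 to the Golgi, where proteases release their active part, which enters the nucleus and binds sterol regulatory elements beside the factor NF-Y. When sterol is plentiful, INSIG proteins hold SCAP back. The brain makes its own cholesterol, because lipoproteins of the blood do not cross into it.

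Promoter sequences are shown because the pathway is known for these shared elements. Of the 30 genes, 24 were matched by symbol to the RefSeq promoter table (GRCm38.p6), which holds 250 bases before and 50 after each start. The sterol regulatory element was searched as TCACNCCAC, its core as CACCCCAC (which lies inside TCACCCCAC), the NF-Y box as CCAAT and the Sp1 box as GGGCGG, each on both strands. Only exact matches were counted, so variant forms of these elements would be missed. The Hmgcs1 promoter was the only one of the 24 with an exact match to TCACNCCAC in this window. It is given below from 250 bases to 1 base before the start (chr13:119690101-119690350, plus strand). That match, the CCAAT boxes and the Sp1 boxes are in capitals on whichever strand they lie. ATTGG is CCAAT and CCGCCC is GGGCGG read on the other strand.
Hmgcs1: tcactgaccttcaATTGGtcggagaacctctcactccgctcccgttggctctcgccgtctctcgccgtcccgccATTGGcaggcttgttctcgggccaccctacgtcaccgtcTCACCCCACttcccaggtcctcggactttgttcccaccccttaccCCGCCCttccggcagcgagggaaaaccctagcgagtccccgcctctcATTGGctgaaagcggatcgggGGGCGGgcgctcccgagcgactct

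The next 30-base windows show the CCAAT box (capitals, either strand) nearest before the start in the 4 genes with the largest test statistic for S970D against WT. The first 3 stood higher in S970D and the last stood lower. They lie at chr19:6067880-6067909 (minus strand), chr5:114444207-114444236 (plus), chr8:122443432-122443461 (minus) and chr9:42264307-42264336 (minus).
Tm7sf2: ctcccagcgctgATTGGctactgtgctggg
Mvk: ttaatgtttgacCCAATctgtaaaggagcc
Mvd: ccggccagcgggCCAATcatatggcagcgc
Sc5d: cgccggctgctgATTGGccggctgcctgca

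A CCAAT box was present in the promoters of 20 of the 24 genes, 83.3%, beside 43.5% of 11158 measured genes and 41.1% of 27025 genes of the table. GGGCGG was also present in 20 of the 24 and in 66.5% of measured genes. TCACNCCAC was found in 4.2% of the 24 and 1.4% of measured genes, and its core in Acat2 and Hmgcs1, 8.3% beside 3.8%. As the printed windows show, genes on both sides of the comparison below carry the CCAAT letters. A match of letters is a description of the window and does not show binding.

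The values are log2 CPM, log2 counts per 1e6 reads as the authors deposited them, and their prior count is not stated. Read counts were not used here, and depth per library is unknown. Mov10 stood at 14.90, 15.49 and 15.71 log2 CPM in WT replicates 1 to 3, at 14.62, 15.24 and 15.42 with S970A, and at 14.57, 14.84 and 14.75 with S970D, so every S970D library lay below every WT library. The 12 N2A markers on the list were all measured, from Dbh at -1.29 to Prph at 10.13 log2 CPM on average, and their summed level was 3000 to 3510 CPM in WT, 2980 to 5220 in S970A and 4520 to 5410 in S970D. Of markers of other cell types, 2 of 6 for adipocytes (5.59 to 7.82 CPM summed over all libraries, mostly Pparg), 1 of 6 for hepatocytes (Apoa1, at most 0.475 CPM), 3 of 7 for oligodendrocytes and Schwann cells (61.3 to 114 CPM, mostly Pmp22) and 1 of 5 for macrophages (Cd68, at most 2.28 CPM) were matched. Cd68 was at 0.498 to 0.746 CPM in WT and 1.24 to 2.28 in S970D. The part of Mov10 level and of cell state in the differences below was not tested, and in bulk samples fewer cells of a type cannot be told apart from less RNA per cell.

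S970A replicate 1 stood apart from its group. In 29 of the 30 lipid genes it lay nearer to the S970D mean than to the WT mean, as against 4 and 3 genes for S970A replicates 2 and 3. WT replicate 1 lay nearer to S970D in 11 of 30, and WT replicates 2 and 3 in 3 and 1. The WT mean includes these WT libraries and neither mean includes S970A libraries, so WT and S970A counts are not like for like. The same was not counted over all genes, so a trait of the lipid genes cannot be read from these counts. The median absolute difference from the WT mean was 0.68 on the log2 scale in S970A replicate 1, 0.09 in each of the other S970A libraries and 0.46 to 0.65 in S970D. Calls in the comparisons below are therefore given with and without S970A replicate 1.

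**Figure D1:**
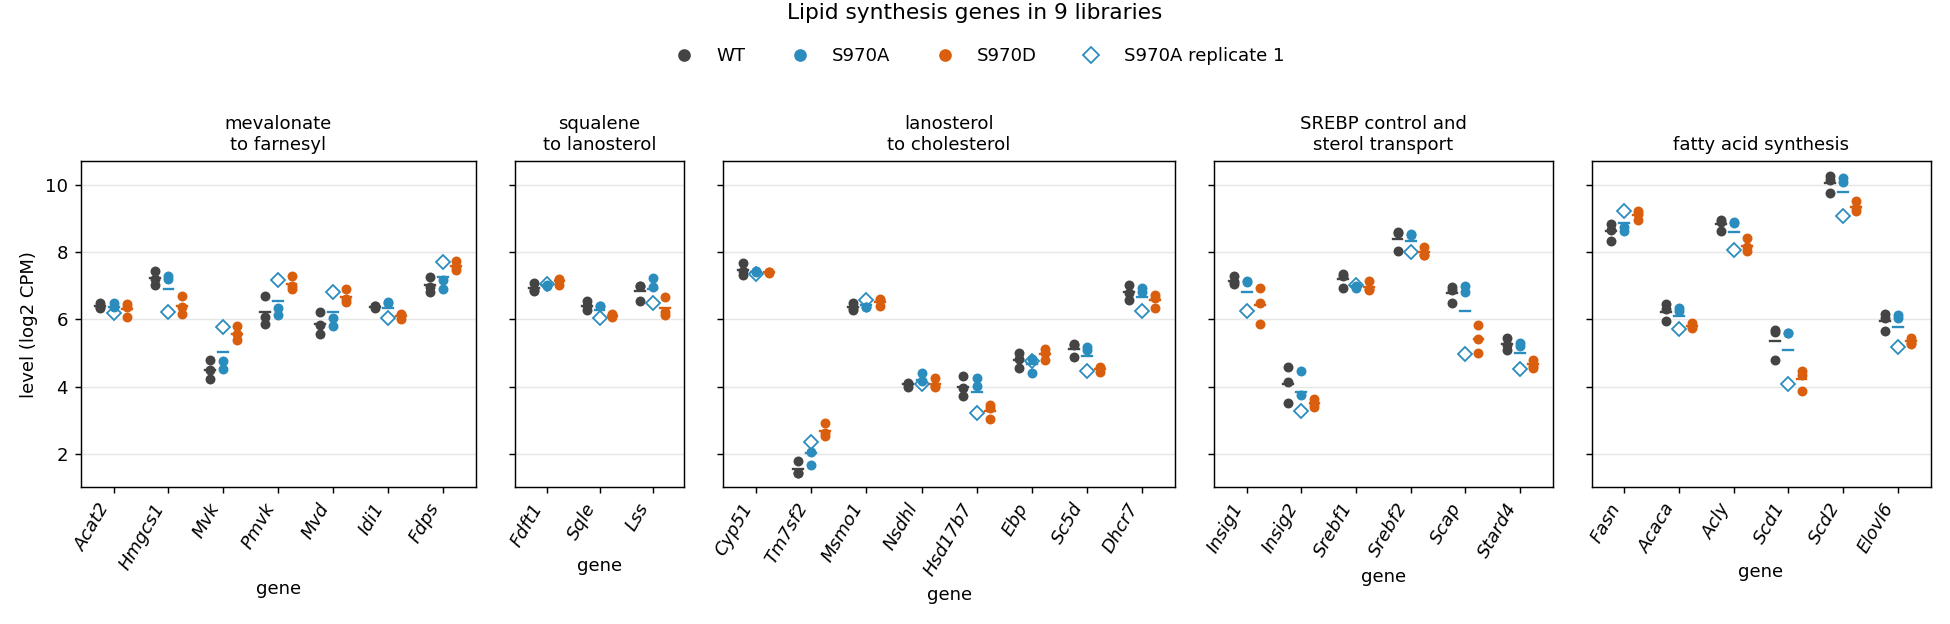
Level of each of the 30 lipid synthesis genes (log2 CPM, y axis) in each library, by step of the pathway (panels) and gene (x axis). Points are libraries, short lines are group means and the open diamond is S970A replicate 1, which sits with the S970D libraries in most genes.

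Levels ranged widely along the pathway. Per kilobase of transcript, averaged over the 9 libraries, Scd2 was the most abundant at 7.29 log2 CPM per kilobase, followed by Acly at 6.40, Pmvk at 6.35, Srebf2 at 5.91 and Fdps at 5.73. Tm7sf2 was the scarcest at 0.47, below Hsd17b7 at 1.5 and Insig2 at 2.37. The cells thus expressed every step, and all 30 genes had a mean above 1 on the log2 CPM scale.

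The main comparison, S970D against WT, asks how messenger RNA levels differ when position 970 mimics phosphorylation. The pathway did not move as 1 block. In S970D, 4 of the 7 enzymes from acetyl-CoA to farnesyl diphosphate and the fatty acid synthase gene Fasn stood higher, by 1.4 to 2.13 times, while the SREBP escort Scap, at 0.389 times its WT level, the desaturase genes Scd1 and Scd2, and Acly, Hmgcs1 and Insig1 stood lower. The median log2 difference of the 30 genes was -0.29, with 20 below 0, beside -0.002 over all genes. Ranges of the groups did not overlap in 6 genes that were higher (20.0%, with 27.9% of all genes) and in 13 that were lower (43.3%, with 29.3% of all genes).

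In limma's moderated test on all 9 libraries, none of the 30 passed at an adjusted p under 0.05 (lowest limma adjusted p = 0.0756), and 0.00626% of all genes did. At an unadjusted p under 0.05 there were 16, 6 higher and 10 lower, as against 7081 of all 15977 genes. That count of 16 was 2 without WT replicate 3, 3 without S970D replicate 1, 5 without WT replicate 2 and 9 without S970D replicate 2. Over all genes the counts were then 3141, 3545, 4032 and 5412 in the same order. With any 1 of the other libraries left out, 13 to 21 of the 30 and 5807 to 8910 of all genes were under 0.05. Replicate numbers met the criterion for pairs in this comparison. With the number as a block, 6 of the 30 rose (20.0%, with 22.2% of all genes) and 11 fell (36.7%, with 23.3% of all genes). Their limma adjusted p-values ran from 0.00642 to 0.0422. That fit also used the S970A libraries, for which the criterion was not met. With the block and only the 6 libraries of WT and S970D, 6 were higher and 13 lower (24.1% and 25.9% of all genes). Below, values with the block are from the fit of all 9 libraries unless the 6 are named. Without S970A replicate 1, and without the block, 6 were higher and 14 lower (22.8% and 24.9% of all genes), of which 16 were also called in the same direction with the block. Idi1, Sqle, Insig1 and Acaca were called in that fit and not with the block (limma adjusted p from 0.0357 to 0.0472), and Srebf2 was called with the block only (limma adjusted p = 0.0677 without S970A replicate 1). "Rose" and "fell" below refer to the fit with the block, and differences carry the SE of the fit without it.

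Length and base composition moved with these differences. Across the 30 genes the S970D difference had a Spearman rho of -0.49 with transcript length and 0.41 with GC content (-0.44 and 0.51 over 15959 annotated genes), where all points come from the same 6 libraries. The 17 genes under 50% GC had a median difference of -0.58, and the 13 others 0.20. After the trend over length and GC content was removed from each library, the median of the 30 was -0.045, and with the block 5 rose and 5 fell (16.7% each, with 14.4% and 13.0% of all genes), 8 of them among the 17 named by the block alone. The shares in both directions were then near those over all genes.

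**Figure D2:**
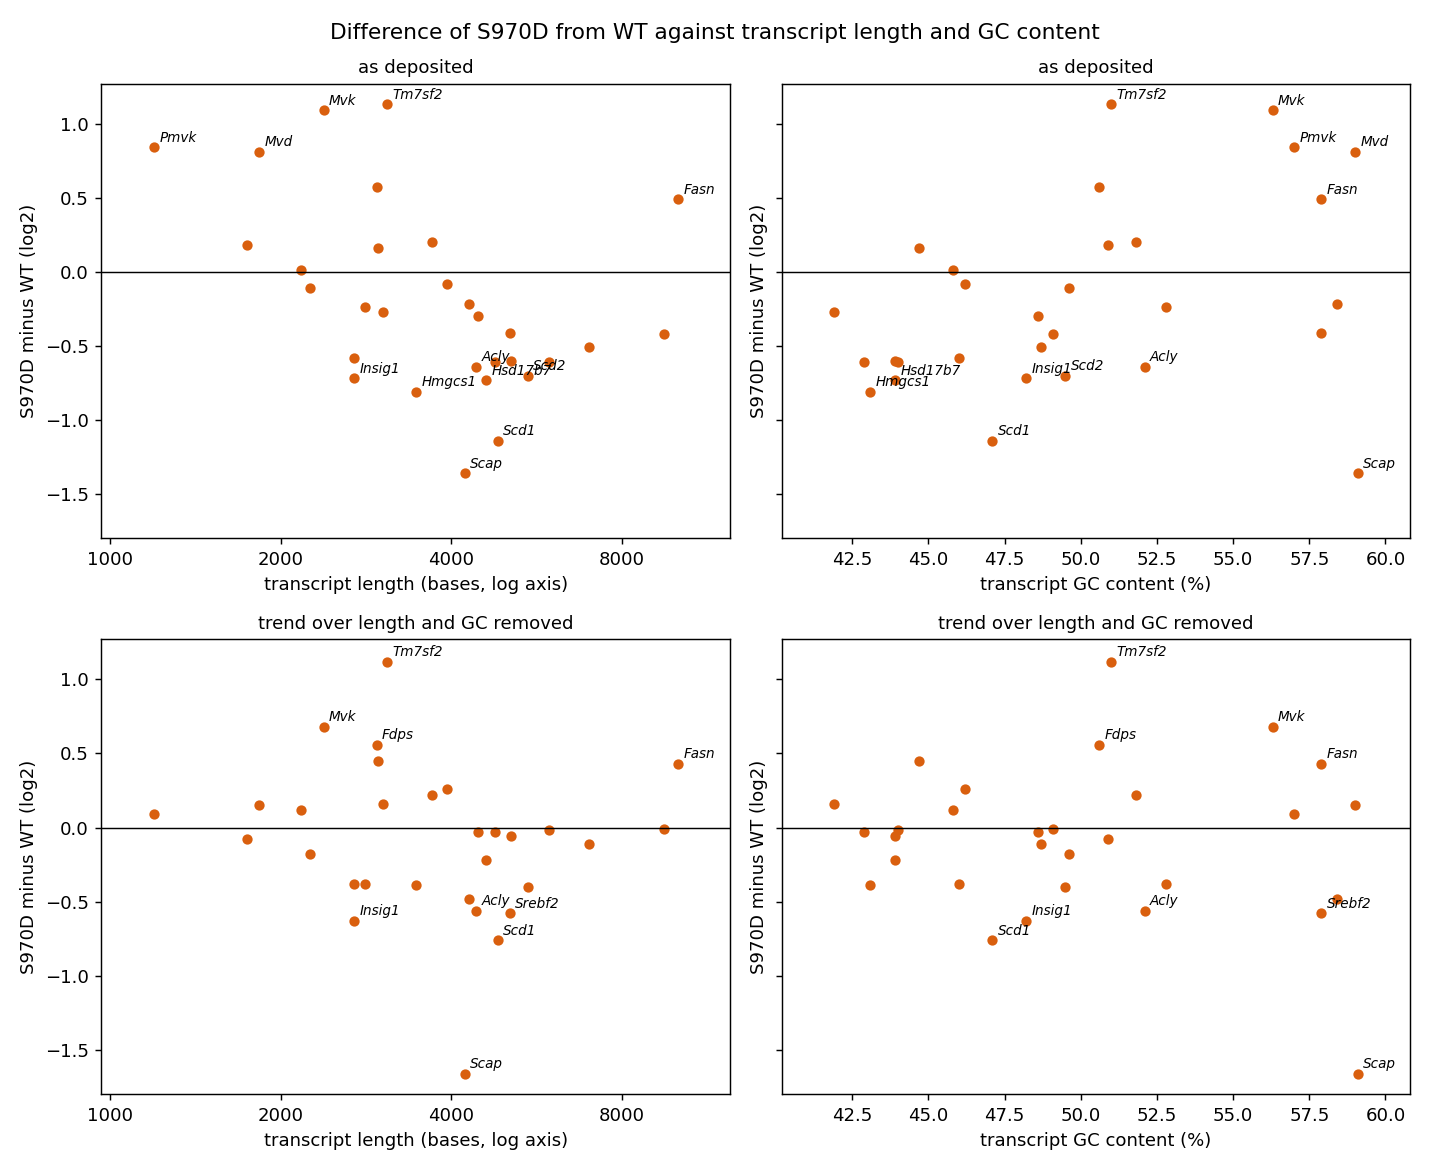
Difference of S970D from WT (log2, y axis) of each of the 30 genes against transcript length (left, log axis) and GC content (right), as deposited (top) and after the trend over both was removed from each library (bottom). Pmvk and Mvd move to near 0 after the removal, whereas Tm7sf2, Mvk, Fdps and Fasn stay above it and Scap and Scd1 below.

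The enzymes from acetyl-CoA to farnesyl diphosphate went in opposite directions. Mevalonate kinase, which adds the first phosphate to mevalonate, is encoded by Mvk (chromosome 5, 114444269 to 114460591, plus strand, GRCm38). It stood at 4.78, 4.48 and 4.22 log2 CPM in WT, at 5.76, 4.76 and 4.53 in S970A and at 5.57, 5.38 and 5.80 in S970D. All S970D libraries and S970A replicate 1 exceeded the WT range, which the other S970A libraries did not leave. S970D exceeded WT by 1.09 ± 0.31 (SE) in log2 units, or 2.13 times, and Mvk rose (limma adjusted p = 0.0756, and 0.0109 with the block). It was 0.68 after removal of the trend and still passed with the block (limma adjusted p = 0.0398).

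The next enzymes of the line, phosphomevalonate kinase (Pmvk) and mevalonate diphosphate decarboxylase (Mvd), behaved alike before that removal. Mvd (chromosome 8, 122433601 to 122443422, minus strand) read 6.23, 5.82 and 5.57 log2 CPM in WT, 6.81, 6.05 and 5.80 in S970A, and 6.91, 6.52 and 6.61 in S970D. Again S970D did not overlap WT and S970A replicate 1 lay among S970D. Its difference was 0.81 ± 0.27, with a limma adjusted p of 0.0758 and of 0.00715 with the block. Pmvk was at 6.22 ± 0.44 log2 CPM (mean ± SD) in WT and 7.06 ± 0.20 in S970D, a difference of 0.84 ± 0.30 (SE; limma adjusted p = 0.0790, and 0.00715 with the block). These are short, GC-rich messages, and once the trend was removed the differences were 0.15 for Mvd and 0.09 for Pmvk and did not pass (limma adjusted p = 0.259 and 0.492 with the block).

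Farnesyl diphosphate synthase, whose product feeds sterols, protein prenylation and dolichol, kept its difference. Its gene Fdps (chromosome 3, 89093588 to 89101959, minus strand), the highest of this step in log2 CPM, was at 7.27, 6.97 and 6.82 in WT, at 7.72, 7.16 and 6.90 in S970A and at 7.73, 7.55 and 7.48 in S970D. The ranges of S970D and WT did not overlap. Fdps rose, with a difference of 0.57 ± 0.22 (limma adjusted p = 0.0866, and 0.0124 with the block) and of 0.56 after removal of the trend (limma adjusted p = 0.0197 with the block).

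Hmgcs1, the cytosolic HMG-CoA synthase whose promoter is printed above, went the other way. It was at 7.23 ± 0.21 log2 CPM in WT and 6.41 ± 0.27 in S970D, each S970D library lying below each WT library. The difference was -0.81 ± 0.29 (limma adjusted p = 0.0775, and 0.0186 with the block), and -0.39 after removal of the trend (limma adjusted p = 0.106 with the block). Idi1, the isomerase of isopentenyl diphosphate, differed by -0.27 ± 0.15 without overlap of the groups, and Acat2, the cytosolic thiolase that starts the line, by -0.11 ± 0.15. Neither passed with the block (limma adjusted p = 0.105 and 0.570). After removal of the trend Idi1 turned to 0.16 and Acat2 was at -0.18, and Acat2 was at 0.00 when libraries were centred on their medians.

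Differences were smaller in the 3 enzymes from farnesyl diphosphate to lanosterol. Squalene synthase, encoded by Fdft1 (chromosome 14, 63145150 to 63179578, minus strand), was at 7.09, 6.84 and 6.87 log2 CPM in WT, at 7.05, 7.03 and 7.0 in S970A and at 7.21, 7.02 and 7.17 in S970D. The groups overlapped, and the difference of 0.20 ± 0.13 did not pass in either fit (limma adjusted p = 0.235, and 0.170 with the block) and was 0.22 after removal of the trend. Lanosterol synthase, which closes the sterol rings, is encoded by Lss (chromosome 10, 76531588 to 76557138, plus strand). It read 6.56, 6.99 and 7.0 in WT, 6.50, 6.96 and 7.22 in S970A, and 6.12, 6.68 and 6.22 in S970D. S970D replicate 2 lay within the WT range, and the difference was -0.51 ± 0.23 (limma adjusted p = 0.121, and 0.0291 with the block). After removal of the trend it was -0.11 and did not pass (limma adjusted p = 0.570 with the block). Sqle, the epoxidase of squalene, differed by -0.30 ± 0.14 without overlap of the groups (limma adjusted p = 0.0641 with the block), and by -0.03 after removal of the trend.

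Of the 8 enzymes that turn lanosterol into cholesterol, the sterol reductase gene Tm7sf2 had the largest difference upward. Tm7sf2 (chromosome 19, 6062821 to 6068373, minus strand) was at 1.78, 1.44 and 1.44 log2 CPM in WT, at 2.35, 2.06 and 1.66 in S970A and at 2.91, 2.63 and 2.52 in S970D. It is the 1 gene of the 30 in which S970D lay above both other groups without overlap. The difference from WT was 1.13 ± 0.22, a ratio of 2.19 (limma adjusted p = 0.0756, and 0.00642 with the block), and it was 1.12 after removal of the trend (limma adjusted p = 0.0141 with the block). The gene shares 532 bases of the same strand with Vps51, which differed by 0.43 ± 0.19 (-0.12 after removal of the trend), and the assignment of reads in that overlap is likewise not stated.

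Sc5d and Hsd17b7, which encode a sterol desaturase and a sterol ketoreductase of the same stretch, were lower. Sc5d (chromosome 9, 42251595 to 42264256, minus strand) was at 4.88, 5.25 and 5.26 log2 CPM in WT, at 4.47, 5.10 and 5.18 in S970A and at 4.44, 4.55 and 4.58 in S970D. Hsd17b7 (chromosome 1, 169949535 to 169969241, minus strand) was at 3.71, 3.97 and 4.33, at 3.21, 4.02 and 4.25, and at 3.02, 3.46 and 3.36 in the same order. In both genes S970D lay below WT without overlap and S970A replicate 1 lay below WT too. Sc5d differed by -0.61 ± 0.21 (limma adjusted p = 0.0758, and 0.0119 with the block) and Hsd17b7 by -0.73 ± 0.28 (limma adjusted p = 0.0886, and 0.0117 with the block). After removal of the trend the differences were -0.03 and -0.22, and neither passed (limma adjusted p = 0.814 and 0.205 with the block).

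The remaining enzymes of this stretch differed little. Lanosterol demethylase, encoded by Cyp51 (chromosome 5, 4081145 to 4104746, minus strand), was at 7.44, 7.31 and 7.67 log2 CPM in WT, at 7.36, 7.44 and 7.41 in S970A and at 7.38, 7.42 and 7.40 in S970D. The S970D libraries lay inside the WT range. The difference was -0.08 ± 0.13, turned to 0.04 with median centring, and was 0.26 after removal of the trend (limma adjusted p = 0.135 with the block). The methylsterol oxidase gene Msmo1 differed by 0.16 ± 0.13, the dehydrogenase gene Nsdhl by 0.01 ± 0.14, the isomerase gene Ebp by 0.18 ± 0.18 and Dhcr7, the reductase of the last step, by -0.24 ± 0.22. Their groups overlapped and none passed with the block (limma adjusted p from 0.264 to 0.939). Msmo1 stood at 0.45 after removal of the trend and then passed with the block (limma adjusted p = 0.0273). Nsdhl was then at 0.12 and Dhcr7 at -0.38, and Ebp turned to -0.08. Dhcr7 was at -0.13 without WT replicate 3 and at -0.12 without S970D replicate 2.

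All 6 genes of the SREBP switch and sterol transport had a mean below WT in S970D, as did 8005 of all 15977 genes. Of the 6, 3 (Scap, Srebf2 and Stard4) fell, beside 23.3% of all genes. With the trend removed as well, Scap, Srebf1 and Srebf2 were called lower and Stard4 was not. Scap, the sterol sensor that escorts SREBP precursors, had the largest difference of the 30. Scap (chromosome 9, 110333288 to 110384950, plus strand) was at 6.50, 6.88 and 6.97 log2 CPM in WT, at 4.97, 7.0 and 6.82 in S970A and at 5.0, 5.84 and 5.42 in S970D. The S970D libraries lay below all WT libraries, and S970A replicate 1 was the lowest of the 9 while the other S970A libraries lay at the upper end of WT. The difference was -1.36 ± 0.48, a ratio of 0.389 (limma adjusted p = 0.0780, and 0.0105 with the block). Scap has 59.1% GC, the highest share of the 30, and its difference was -1.66 after removal of the trend (limma adjusted p = 0.0174 with the block).

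Of the transcription factors themselves, Srebf2, which mainly drives the sterol enzymes, was lower and Srebf1, which mainly drives fatty acid synthesis, differed less. Srebf2 (chromosome 15, 82147181 to 82205379, plus strand) was at 8.04, 8.57 and 8.60 log2 CPM in WT, at 8.01, 8.50 and 8.54 in S970A and at 7.92, 8.15 and 7.92 in S970D. Srebf1 (chromosome 11, 60199089 to 60222581, minus strand) was at 6.94, 7.30 and 7.36, at 7.03, 6.99 and 6.95, and at 6.91, 7.14 and 6.89 in the same order. WT replicate 1 lay within the S970D range in both genes, so the groups overlapped. Srebf2 differed by -0.41 ± 0.21 and fell with the block (limma adjusted p = 0.149, and 0.0422 with the block). Srebf1 differed by -0.22 ± 0.15 and did not pass (limma adjusted p = 0.261, and 0.207 with the block). Srebf2 shares 2110 bases of the same strand with Gm49502, a gene model of the table, and how reads there were assigned is not given in the sources used here. After removal of the trend the values were -0.58 and -0.48, and both passed with the block (limma adjusted p = 0.0184 and 0.0230).

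The INSIG genes, whose products anchor SCAP in the endoplasmic reticulum, had wide spreads. Insig1 (chromosome 5, 28071363 to 28078662, plus strand), itself an SREBP target, was at 7.06, 7.11 and 7.28 log2 CPM in WT, at 6.25, 7.13 and 7.10 in S970A and at 6.50, 5.85 and 6.94 in S970D. The S970D libraries were all below WT but spread over more than 1 log2 unit. The difference was -0.72 ± 0.31 (limma adjusted p = 0.106, and 0.0543 with the block), -0.43 without S970D replicate 2 and -0.63 after removal of the trend. Insig2 (chromosome 1, 121304353 to 121332589, minus strand) was at 3.51, 4.58 and 4.15 in WT, at 3.26, 3.76 and 4.45 in S970A and at 3.62, 3.40 and 3.48 in S970D. WT replicate 1 fell inside the S970D range, and the difference of -0.58 ± 0.33 did not pass (limma adjusted p = 0.201, and 0.128 with the block). It was -0.32 without WT replicate 2 and -0.38 after removal of the trend. Stard4, a carrier that moves sterol between membranes and an SREBP2 target, was at 5.26 ± 0.18 (SD) in WT and 4.66 ± 0.13 in S970D (limma adjusted p = 0.0790, and 0.0184 with the block), and its difference was -0.06 after removal of the trend (limma adjusted p = 0.676 with the block).

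Fatty acid synthesis also divided, with Fasn on 1 side and 5 genes on the other. Fasn (chromosome 11, 120805846 to 120824547, minus strand), the multifunctional synthase of palmitate, was at 8.85, 8.65 and 8.35 log2 CPM in WT, at 9.22, 8.75 and 8.64 in S970A and at 9.22, 9.13 and 8.97 in S970D. No S970D library overlapped WT. The difference was 0.49 ± 0.20 (limma adjusted p = 0.0924, and 0.0160 with the block), 0.43 after removal of the trend (limma adjusted p = 0.0417 with the block) and 0.29 with quantile normalization. Fasn has the longest transcript of the 30, 10050 bases, and 57.9% GC.

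The desaturases put the first double bond into saturated fatty acids, and Scd2 is the form known from brain. Scd1 (chromosome 19, 44394455 to 44407879, minus strand) was at 4.79, 5.64 and 5.68 log2 CPM in WT, at 4.07, 5.61 and 5.60 in S970A and at 3.87, 4.46 and 4.35 in S970D. Scd2 (chromosome 19, 44293674 to 44306864, plus strand) was at 9.75, 10.16 and 10.28, at 9.07, 10.10 and 10.22, and at 9.33, 9.23 and 9.53 in the same order. In both, S970D lay below WT without overlap and S970A replicate 1 lay within S970D for Scd1 and below it for Scd2. The differences were -1.14 ± 0.42 for Scd1 (limma adjusted p = 0.0821, and 0.00693 with the block) and -0.70 ± 0.30 for Scd2 (limma adjusted p = 0.104, and 0.0278 with the block). After removal of the trend they were -0.76 and -0.40, of which Scd1 passed with the block (limma adjusted p = 0.0149) and Scd2 did not (0.0922). Scd2 was at -1.11 with quantile normalization. Per kilobase, Scd2 exceeded Scd1 by 4.31 to 5.28 log2 units in the 9 libraries, and these paralogues are similar enough that reads could be shared between them.

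Acly, which supplies cytosolic acetyl-CoA to both pathways, was at 8.84 ± 0.17 (SD) in WT and 8.20 ± 0.19 in S970D, without overlap. Acly fell, with a difference of -0.64 ± 0.23 (SE) (limma adjusted p = 0.0796, and 0.0218 with the block) and of -0.56 after removal of the trend (limma adjusted p = 0.0353 with the block). The elongase gene Elovl6 differed by -0.61 ± 0.25 and fell with the block (limma adjusted p = 0.0236), and Acaca, acetyl-CoA carboxylase, differed by -0.42 ± 0.20 and did not pass (limma adjusted p = 0.0513 with the block). Both were without overlap, and both were near 0 after removal of the trend, at -0.02 and -0.01.

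Summed over each step, the levels followed their abundant members. The 6 fatty acid genes together were at 1858, 2226 and 2269 CPM in WT, at 1510, 2192 and 2257 in S970A and at 1636, 1535 and 1705 in S970D. The 6 genes of the SREBP switch and sterol transport summed to 656, 857 and 893 CPM in WT, to 528, 808 and 807 in S970A and to 521, 575 and 565 in S970D. The 3 genes from squalene to lanosterol summed to 309, 326 and 338 CPM in WT, to 288, 340 and 362 in S970A and to 285, 302 and 289 in S970D. In these steps S970D lay below WT without overlap, as did 29.3% of all genes taken singly. The 7 genes up to farnesyl diphosphate summed to 579 to 663 CPM in WT and 651 to 766 in S970D, and the 8 from lanosterol to cholesterol to 449 to 517 and 436 to 450, with overlap in both of those steps. These sums were not tested, and they are of values from which the trend over length and GC content was not removed. With the trend removed, the median S970D difference of the fatty acid genes went from -0.62 to -0.21. It went from -0.3 to -0.03 for squalene to lanosterol, and from -0.59 to -0.53 for the SREBP switch and sterol transport.

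**Figure D3:**
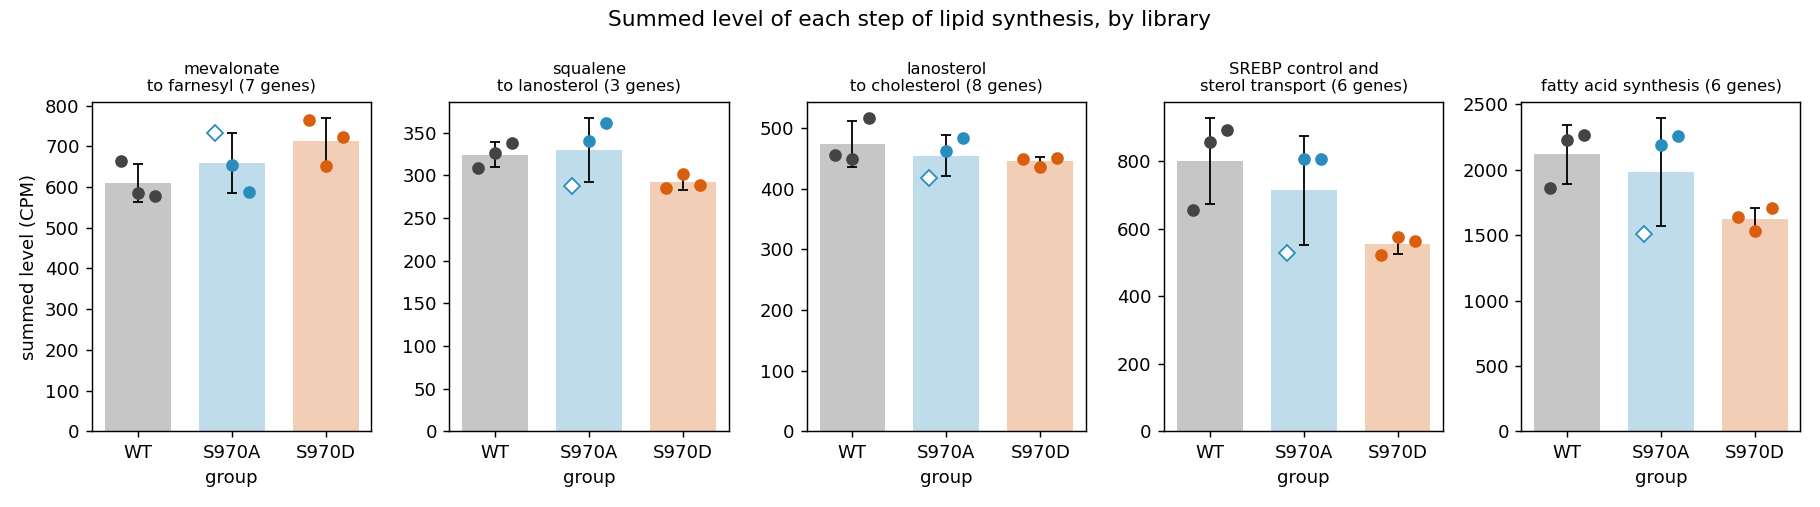
Summed level (CPM, y axis from 0) of the genes of each step in WT, S970A and S970D (x axis). Points are libraries, with S970A replicate 1 as an open diamond, bars are means and whiskers are SD (n = 3). Levels are as deposited, without removal of the trend over length and GC content. Every S970D library lies below every WT library for the SREBP switch, fatty acid synthesis and squalene to lanosterol.

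S970A against WT asks the same of a residue that cannot be phosphorylated. The 30 genes had a median difference of -0.13 (-0.007 over all genes), and no gene of the 30 had groups without overlap, where 3.1% of all genes were higher and 3.32% lower in that sense. None of the 30 passed limma's test (lowest adjusted p = 0.776), and 0.0% of all genes did. None had an unadjusted limma p under 0.05 either, as against 280 of all 15977 genes. The 4 largest test statistics belonged to Tm7sf2 (0.47 ± 0.22), Mvk (0.52 ± 0.31), Srebf1 (-0.21 ± 0.15) and Fasn (0.25 ± 0.20), each with a limma adjusted p of 0.776. Without S970A replicate 1 the median was 0.065 and the same genes were at 0.30, 0.15, -0.23 and 0.08, so the differences of Mvk, Fasn and Tm7sf2 shrank by more than 1.5 times and that of Srebf1 did not. Scap, at -0.52 ± 0.48 with all libraries, was at 0.13 without that library. Both this comparison and the one above use the same WT libraries.

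**Figure D4:**
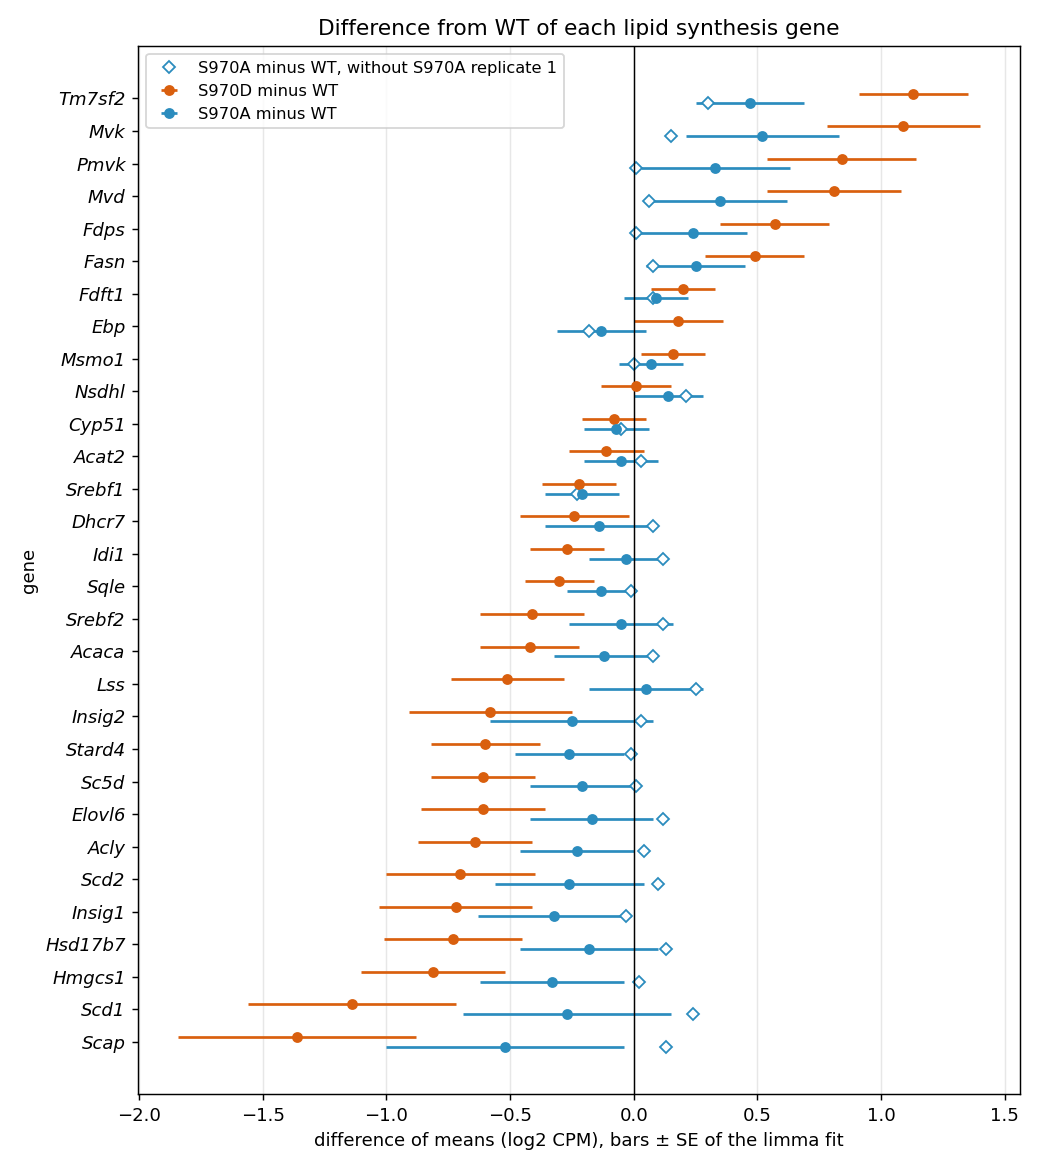
Difference of S970D (orange) and S970A (blue) from WT in log2 CPM (x axis, bars ± SE of the limma fit) for each of the 30 genes (y axis, ordered by S970D). Open diamonds give S970A without replicate 1, where most genes lie near 0 and Scap moves from -0.52 to 0.13.

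S970D against S970A compares the mutants with each other. The median difference of the 30 was -0.21 (-0.004 over all genes), and -0.068 after removal of the trend over length and GC content. Tm7sf2 was the 1 gene that was higher without overlap (3.96% of all genes) and none was lower (4.11% of all genes). No gene of the 30 passed limma's test (lowest adjusted p = 0.411), and 0.0% of all genes did. At an unadjusted limma p under 0.05 there were 2, Tm7sf2 and Lss, as against 1110 of all 15977 genes. Differences were 0.66 ± 0.22 for Tm7sf2, -0.56 ± 0.23 for Lss, -0.87 ± 0.42 for Scd1 and -0.55 ± 0.28 for Hsd17b7, the 4 with the largest test statistics.

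Without S970A replicate 1 the comparison of the mutants changed. The median was then -0.36 (it was -0.078 without S970A replicate 3), and 5 of the 30 were higher (16.7%, with 18.7% of all genes) and 13 lower (43.3%, with 20.8% of all genes). Scap was lower by a log2 difference of -1.49 ± 0.24 (limma adjusted p = 0.0145), Scd1 by -1.38 ± 0.28 (limma adjusted p = 0.0148) and Hmgcs1 by -0.83 ± 0.18 (limma adjusted p = 0.0152), while Mvk was higher by 0.94 ± 0.19 (limma adjusted p = 0.0148) and Tm7sf2 by 0.83 ± 0.21 (limma adjusted p = 0.0194). With the trend over length and GC content removed as well, the median was -0.085. Then 3 of the 30 were higher (10.0%, with 10.4% of all genes) and 5 lower (16.7%, with 9.93% of all genes). Scap, Scd1, Mvk and Tm7sf2 were still called and Hmgcs1 was not. These values rest on 2 S970A libraries, and no label gives a reason to leave replicate 1 out.

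Other genes of sterol and fatty acid metabolism, from a list of 45 of which 40 were measured, also lay on both sides of WT in S970D. None passed in limma's test on 9 libraries, and 19 of the 40 had an unadjusted p under 0.05, as against 7081 of all 15977 genes. With the block 10 rose and 12 fell among the 40, beside the 22.2% and 23.3% of all genes given above. With the trend removed as well, 7 rose and 7 fell, 17.5% each beside 14.4% and 13.0%. Lbr, which shares its sterol reductase activity with Tm7sf2, was at 6.10 log2 CPM in WT and 4.88 in S970D (-1.22 ± 0.48; limma adjusted p = 0.0347 with the block). Erlin1 and Erlin2, membrane proteins that restrain SREBP activation, differed by -0.92 ± 0.31 and -1.18 ± 0.36, and Mbtps2, the protease that releases SREBP in its second cut, by -1.03 ± 0.36 (limma adjusted p from 0.00696 to 0.0109 with the block). Mbtps1, the protease of the first cut, differed by -0.13 ± 0.22, did not pass (limma adjusted p = 0.516 with the block) and turned to 0.19 after removal of the trend. After removal of the trend Erlin1 and Erlin2 still passed with the block (limma adjusted p = 0.0216 and 0.0211), and Lbr and Mbtps2 did not (0.0996 and 0.157).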

How the data were processed

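Per the labels, total RNA from N2A cells was made into stranded mRNA libraries and read from both ends. GRCm38, R 3.6.3, Salmon 1.1.0 and bcl2fastq 2.20 are listed, without roles, per the submitters' processing notes. The authors deposited log2 CPM for 15977 genes in 9 libraries, with the same lowest value, -4.09, in each; no source used here gives the prior count, scaling or filter. Steps between low values were not whole reads, so depth and its precision are unknown. The CPM sum to 955214 to 1069215 per library.

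The members and lists were chosen with earlier results of these data known. limma 3.58.1 (R 4.3.3) was fitted to all genes and libraries by group, with an intensity trend, two-sided tests and Benjamini-Hochberg adjustment. The 4 members with the largest test statistic per comparison, the SREBP switch and the most abundant gene of each step are given by library. Between S970D and WT, deviations from the group means correlated at 0.308, 0.107 and 0.156 for replicates 1, 2 and 3, each above the criterion of 0.1, and values with the block are printed there; no label says what a number marks, and for S970A the criterion was not met. Length and GC content are those of the transcript with the longest coding sequence in GENCODE vM21 (15959 IDs matched), and their trend was removed with splines of 5 degrees of freedom. Only the S970D against WT comparison of the fit without the block or the trend removal was tested on simulated data. Alternatives are a pseudocount of 1, a filter at a mean of 1, quantile normalization, median centring, no intensity trend, fewer libraries, the block and the trend removal. Some genes of the pathway are not reported here.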

Additional observations from a re-analysis of the deposited data

How the results depend on the processing

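The count of lipid genes called in S970D against WT was 0 with all 9 libraries. It was 15 of 30 (with 42.1% of all genes) with only the 6 libraries of the comparison, 19 (63.3%, with 3845 higher and 4140 lower of all 15977 genes) with these and the replicate block, 17 (56.7%, with 45.5%) with the replicate block, 10 (33.3%, with 27.3%) with the trend over length and GC content removed and the replicate block, and 11 (36.7%, with 29.3%) with the trend removed and S970A replicate 1 left out; the cause was not tested. Leaving out 1 library gave 0 to 20 in S970D against WT, 0 to 18 in S970D against S970A and 0 in S970A against WT, and the highest counts came without S970A replicate 1. With that library left out and the trend removed, 8 (26.7%, with 20.4%) were called in S970D against S970A. The replicate block left the counts of called lipid genes in the other comparisons at 0. The median of the 30 genes was -0.045 in S970D against WT with the trend removed, with and without the replicate block and S970A replicate 1. In S970A against WT it ranged from -0.22 to 0.065 when 1 library was left out, and was 0.048 with the trend removed and S970A replicate 1 left out. With libraries centred on their medians, the median over all genes in S970D against WT was 0.11, and 18 of the 30 were below 0. In S970D against WT the direction turned with the trend removed, alone, with the block or without S970A replicate 1, for Cyp51 (0.26), Idi1 (0.16), Ebp (-0.085), Mbtps1 (0.19) and Vps51 (-0.12), and with median centring for Cyp51 (0.035), Acat2 (0.004) and Fads2 (0.078). Values without 1 library crossed 0 for Cyp51 (-0.16 to 0.019), Acat2 (-0.19 to 0.014), Nsdhl (-0.071 to 0.065) and Fads2 (-0.13 to 0.12). In S970A against WT, Scap ran from -0.89 to 0.13 without 1 library and was 0.068 with the trend removed and S970A replicate 1 left out, where Fasn was at -0.013. The removal of the trend joined to a left-out library and the 6-library fit with the block were chosen after the data were seen. Depth is unknown, so how far counting error limits the low genes Tm7sf2 and Hsd17b7 cannot be given.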

Other observations

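The following genes come from the wider pathway list, of which none passed in limma's test on 9 libraries, and with the block 45.5% of all genes were called in S970D against WT. Abca1, the pump that loads cholesterol onto apolipoproteins, was at 2.42 log2 CPM in WT and 1.04 in S970D, a difference of -1.38 ± 0.39 (SE, n = 3; limma adjusted p = 0.0756, and 0.00697 with the replicate block), and Mylip, a ubiquitin ligase, differed by -0.85 ± 0.28 (limma adjusted p = 0.00705 with the block). Both are known targets of the liver X receptors, whose genes Nr1h2 and Nr1h3 were higher by 0.86 ± 0.24 and 0.63 ± 0.27 (limma adjusted p = 0.00664 and 0.0189 with the block). With the trend over length and GC content removed, Abca1 and Mylip still passed with the block (limma adjusted p = 0.0299 and 0.0141), and Nr1h2 and Nr1h3 did not (0.238 and 0.541). Soat1, which esterifies cholesterol for storage, was lower by a difference of -0.99 ± 0.33 and its relative Soat2 higher by 0.55 ± 0.17 (limma adjusted p = 0.00867 and 0.0252 with the block), and neither passed after that removal (0.0697 and 0.456).

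In fatty acid metabolism, Elovl5, an elongase of polyunsaturated fatty acids, differed by -1.16 ± 0.39 and Acsl3, which activates long-chain fatty acids, by -0.91 ± 0.26 (limma adjusted p = 0.00924 and 0.00661 with the block), and both still passed after removal of the trend (0.0226 and 0.0275). Dhdds, which uses farnesyl diphosphate to build dolichol, was higher by 0.94 ± 0.35 (limma adjusted p = 0.00803 with the block, and 0.0177 after removal of the trend). Fads2, a desaturase of polyunsaturated fatty acids, differed by -0.04 ± 0.17 and did not pass (limma adjusted p = 0.876 with the block).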
